A study of Homo sapiens with 6 samples.

Results

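The IFIT genes (interferon-induced proteins with tetratricopeptide repeats) were examined in HT1080, an established human fibrosarcoma cell line, before and after exposure to interferon β (IFNβ). The 5 members IFIT1, IFIT1B, IFIT2, IFIT3 and IFIT5 were taken by symbol from the 62710 genes of the expression table. Of these members, 4 passed the filter on low values and stood among the 20716 genes tested, and IFIT1B did not. RNA was sequenced from 3 libraries of untreated HT1080 cells and 3 libraries of HT1080 cells given IFNβ at 20 ng/mL for 24 h, all grown in high-glucose DMEM with serum. The labels name human IFNβ for these cells, while the study's sequencing methods name the mouse protein. The unit is FPKM, the number of sequenced fragments scaled by the length of the gene and by the fragments of the library, so levels can be set side by side between libraries, and between genes as far as the gene lengths used hold. The study describes independent biological replicates for its cell culture work as a whole, while the labels do not say whether each library is a separate culture, so the p-values measure the spread between these libraries, which may be technical.

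IFNβ binds a cell-surface receptor made of IFNAR1 and IFNAR2, and the kinases JAK1 and TYK2 on that receptor activate ISGF3, a complex with STAT2 and IRF9 among its subunits, which binds the interferon-stimulated response element in the promoters of its target genes. The IFIT genes are classical targets of this kind, made of few exons and lying next to each other. IFIT1 holds the cap of messenger RNAs that lack methylation on the first ribose, a mark that sets many viral RNAs apart from host RNAs, and keeps them from being translated. IFIT2 and IFIT3 associate with IFIT1, IFIT3 stabilises it, IFIT5 binds RNA ends that carry phosphates, and IFIT1B is a close relative of IFIT1 that is little studied in human cells.

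All 5 members lay on the plus strand of chromosome 10 (GRCh38, GENCODE release 29) within 137 kb. In order along the chromosome they were IFIT2 (ENSG00000119922, chr10:89283694-89309276), IFIT3 (ENSG00000119917, chr10:89327894-89340971), IFIT1B (ENSG00000204010, chr10:89378056-89385205), IFIT1 (ENSG00000185745, chr10:89392546-89406486) and IFIT5 (ENSG00000152778, chr10:89414586-89421001). Each is annotated as protein-coding. The pseudogene IFIT6P lies between IFIT3 and IFIT1B and was listed at 0 in every library.

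The promoters are shown because the core of the response element can be read in them directly. The RefSeq promoter table (GRCh38.p14) held 5 windows for 4 of the members, each of 300 bases from 250 before a transcription start, with an upstream and a downstream start for IFIT3. The core of the response element was searched as TTTC, any 2 bases and TTTC again, on both strands (GAAA, any 2 bases and GAAA on the other strand), with overlapping matches counted. In the stretches below, written 5′ to 3′ on the plus strand, capitals mark each match. The stretches are chr10:89392473-89392545 for IFIT1, chr10:89327827-89327893 for the upstream and chr10:89332419-89332487 for the downstream start of IFIT3, chr10:89414545-89414573 for IFIT5, and chr10:89377906-89377978 for IFIT1B.
IFIT1: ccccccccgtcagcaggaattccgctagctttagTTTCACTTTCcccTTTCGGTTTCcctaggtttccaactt
IFIT3 upstream: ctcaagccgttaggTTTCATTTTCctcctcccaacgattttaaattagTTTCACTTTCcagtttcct
IFIT3 downstream: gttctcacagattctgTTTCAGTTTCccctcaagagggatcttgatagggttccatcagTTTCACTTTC
IFIT5: ttagTTTCGATTTCttaagTTTCAGTTTC
IFIT1B: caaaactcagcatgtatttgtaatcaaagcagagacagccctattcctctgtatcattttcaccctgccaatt

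The IFIT1 window held 2 matches, which began 116 and 103 bases before the start and were separated by only the letters ccc. Each IFIT3 window also held 2 matches, 156 and 122 bases before the upstream start and 94 and 51 bases before the downstream start. The IFIT5 window held 3 matches, beginning 45, 19 and 4 bases before the start, of which the nearer pair is printed. The IFIT1B window held none. Of all 35116 promoter windows in the table, 3.57% held at least 1 match, 0.259% held at least 2 and 0.0370% held at least 3. A match describes letters in a window and was not tested as a binding site.

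After IFNβ, 4 of the 4 members tested were higher, where 4.22% of all genes tested were differentially expressed, 3.49% higher and 0.739% lower. A gene was called differentially expressed (DEG) when limma, run on log2(FPKM + 0.1), gave it a Benjamini-Hochberg adjusted p under 0.05 and its log2 fold change was 1 or more in either direction. The median log2 fold change of the 4 members was 6.96, beside 0.00 over all genes tested. For none of the 4 did the groups overlap, and this was so for 46.6% of all genes tested. In bulk RNA, a change in the number of cells that express a gene and a change in RNA per cell cannot be told apart.

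**Figure D1:**
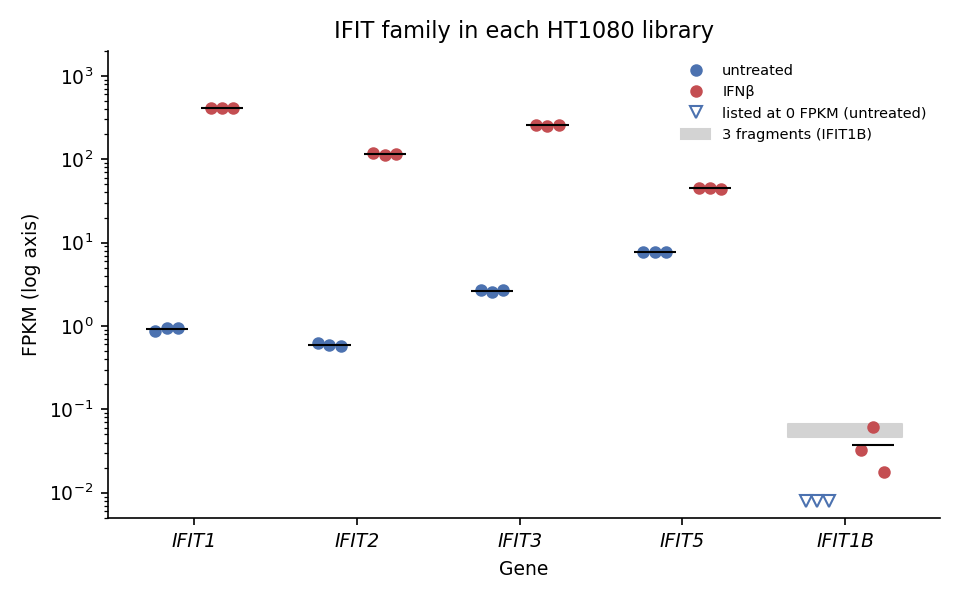
FPKM of the 5 IFIT genes (log axis) in each of the 3 untreated (blue) and 3 IFNβ-treated (red) libraries, with a black line at the group mean. Open triangles mark libraries in which IFIT1B was listed at 0, and the grey band spans the FPKM that 3 fragments of IFIT1B are worth in the 6 libraries. The 4 members tested were separated between the groups with little spread, and IFIT1B stayed at the level of a few fragments.

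IFIT1, the cap-binding member, had 0.873, 0.935 and 0.942 FPKM in the untreated libraries and 414, 409 and 415 FPKM in the IFNβ-treated libraries. Every treated library was far above every untreated one, the closest pair being 434-fold apart. The mean rose from 0.916 ± 0.0380 to 413 ± 3.30 FPKM (SD, 3 libraries per group), a log2 fold change of 8.67 ± 0.03 (SE, adjusted p = 5.2e-10 in limma). Among the genes tested it had rank 3 in fold change, rank 12100 in level in untreated cells and rank 37 in IFNβ-treated cells. The untreated level rested on 92 to 143 fragments per library and the treated level on 47129 to 58858, which gave a 448-fold ratio of fragments with a 95% interval from counting error alone of 404 to 498 (exact binomial).

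IFIT2, which associates with IFIT1 and IFIT3, had 0.627, 0.592 and 0.576 FPKM without IFNβ and 119, 112 and 116 FPKM with it. It was the lowest of the members tested in untreated cells, and the groups did not overlap. Its mean rose from 0.598 ± 0.0263 to 116 ± 3.19 FPKM (SD, 3 libraries per group), with a log2 fold change of 7.37 ± 0.04 (SE, adjusted p = 1.2e-09 in limma). The untreated libraries held only 62 to 82 fragments of IFIT2, so that counting error alone spans a ratio of 170 to 223.

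IFIT3, the partner that stabilises IFIT1, had 2.69, 2.58 and 2.72 FPKM in untreated cells and 261, 253 and 257 FPKM after IFNβ. Its untreated level was above those of IFIT1 and IFIT2 in every library, and the treated libraries were at least 93.3-fold above the untreated ones. The mean rose from 2.66 ± 0.0729 to 257 ± 3.74 FPKM (SD, 3 libraries per group), a log2 fold change of 6.54 ± 0.03 (SE, adjusted p = 5.2e-10 in limma). Between 312 and 453 fragments stood behind the untreated values.

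IFIT5, the member known for binding phosphorylated RNA ends, was measured at a clear level before IFNβ. It had 7.62, 7.66 and 7.66 FPKM in the untreated libraries and 45.0, 45.1 and 44.3 FPKM in the treated ones, the highest member of the family before IFNβ and the lowest of those tested after it. The groups did not overlap. Its mean rose from 7.65 ± 0.0220 to 44.8 ± 0.423 FPKM (SD, 3 libraries per group), 5.86-fold, with a log2 fold change of 2.53 ± 0.02 (SE, adjusted p = 4.7e-09 in limma). In fold change it had rank 161 of the 20716 genes tested, where IFIT2 had rank 12 and IFIT3 rank 18.

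IFIT1B, the relative of IFIT1, was listed at 0 FPKM in all 3 untreated libraries and at 0.0329, 0.0609 and 0.0176 FPKM in the IFNβ-treated ones. These values are 2, 3 and 1 fragments. A count of 0 allows up to 3 fragments, which are worth 0.0462 to 0.0666 FPKM in the untreated libraries, and no fold is given because both groups are at or under that limit. Its annotated transcript shares a run of 72 identical bases with a transcript of IFIT1, the longest run shared between any pair of the family, the others reaching 14 to 33 bases. The IFIT1B fragments came to 3.40, 6.37 and 1.81 for every 100000 fragments of IFIT1 in the same libraries. Whether these fragments came from IFIT1 RNA was not tested. The pseudogene IFIT1P1, on another chromosome, had 5, 2 and 4 fragments in untreated and 8, 0 and 4 fragments in IFNβ-treated libraries, with overlapping groups.

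The spread between libraries was small for the 4 members tested, with a coefficient of variation of 0.287% to 4.39% in untreated cells and of 0.800% to 2.76% in IFNβ-treated cells. In untreated cells this was below what counting error alone gives on these fragments, which is 9.25% for IFIT1, 11.8% for IFIT2, 5.16% for IFIT3 and 3.28% for IFIT5. In IFNβ-treated cells the spread was above counting error for IFIT1 (0.800% against 0.433%), IFIT2 (2.76% against 0.846%) and IFIT3 (1.46% against 0.524%). It was below counting error for IFIT5 (0.944% against 1.35%). The ratios are known no better than the counting intervals, which leave out the spread between libraries. These intervals ran from 91.1 to 102 for IFIT3 and from 5.63 to 6.09 for IFIT5.

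The order of the members by level changed with IFNβ. In untreated cells it was IFIT5, IFIT3, IFIT1 and IFIT2, and after IFNβ it was IFIT1, IFIT3, IFIT2 and IFIT5. Every pair of neighbours in either order was separated in all libraries, the closest being IFIT1 over IFIT2 in untreated cells, at 1.53 times its FPKM, and IFIT1 over IFIT3 after IFNβ, at 1.61 times. The step from IFIT3 to IFIT1 depends on the gene length used. The FPKM imply a length of 5067 bases for IFIT3, whereas its exons in release 29 cover 2640 bases, and with release 29 lengths IFIT3 came to 493 ± 7.18 (SD, n = 3) and IFIT1 to 413 ± 3.30 (SD, n = 3) on the FPKM scale after IFNβ, which reverses their order. The order in untreated cells and the places of IFIT2 and IFIT5 were the same with either length.

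The summed level of the 5 members went from 11.8, 11.8 and 11.9 FPKM in the untreated libraries to 839, 820 and 832 FPKM in the treated ones, a 70.2-fold ratio of means. In fragments, the family took 0.00537% of an untreated library and 0.390 ± 0.00453% (SD, n = 3) of a treated one. Its composition turned over. IFIT5 made up 64.7 ± 0.369% (SD, n = 3) of the summed FPKM before IFNβ and 5.40 ± 0.0929% (SD, n = 3) after, whereas IFIT1 went from 7.75 ± 0.315% to 49.7 ± 0.282% (SD, 3 libraries per group). IFIT3 went from 22.5 ± 0.512% to 31.0 ± 0.126% and IFIT2 from 5.06 ± 0.235% to 13.9 ± 0.224% (SD, 3 libraries per group). With release 29 lengths the share of IFIT1 after IFNβ was 38.3% and that of IFIT3 45.8%, while that of IFIT5 was 55.6% before and 4.53% after.

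**Figure D2:**
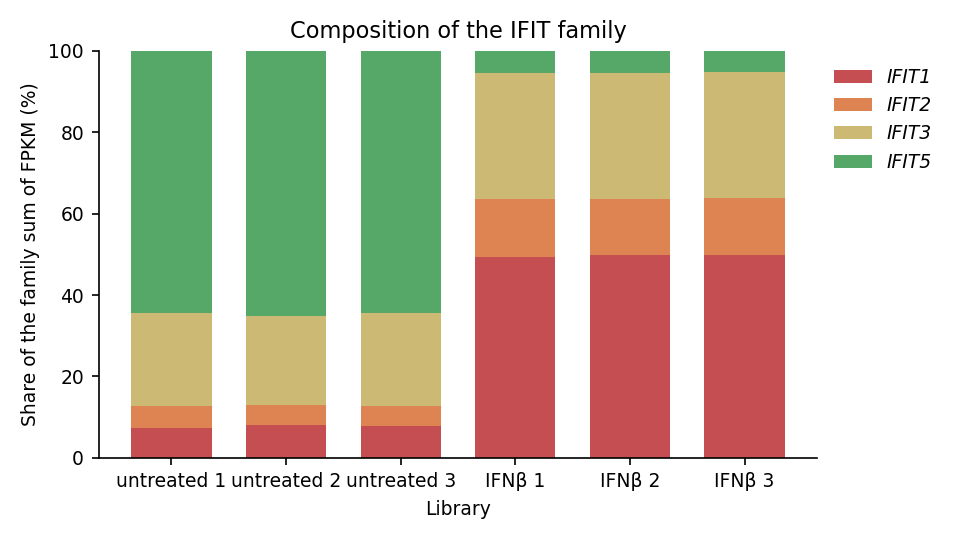
Share of the summed IFIT family FPKM (percent, vertical axis from 0 to 100) taken by IFIT1, IFIT2, IFIT3 and IFIT5 in each of the 6 libraries. IFIT1B took at most 0.00743% and is not visible. IFIT5 took 64.4% to 65.1% in the untreated libraries, and IFIT1 49.4% to 49.9% in the IFNβ-treated ones.

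Fold changes were then compared between members. The log2 ratio of each of the 6 pairs of members was compared between the groups, library by library. The 95% intervals rest on the spread between libraries alone. They cover neither counting error, which exceeded the spread of each member in untreated cells, nor the effect of the pseudocount. The log2 fold change of IFIT1 exceeded that of IFIT2 by 1.30 (95% interval 1.12 to 1.47), that of IFIT3 by 2.13 (2.00 to 2.25) and that of IFIT5 by 6.13 (6.04 to 6.22). IFIT2 exceeded IFIT5 by 4.84 (4.72 to 4.95) and IFIT3 exceeded IFIT5 by 4.01 (3.93 to 4.08). The smallest difference was that of IFIT2 over IFIT3, at 0.83 (0.72 to 0.94). This difference came to 0.05 with a pseudocount of 1 in place of 0.1, and to 0.98 with a pseudocount of 0.01. In limma-voom on the fragments the log2 fold changes were 7.59 for IFIT2 and 6.59 for IFIT3. In all 6 pairs the ratios of the groups did not overlap, and the two-sided exact permutation p was 0.10 before and after adjustment, the smallest that 3 libraries against 3 allow.

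**Figure D3:**
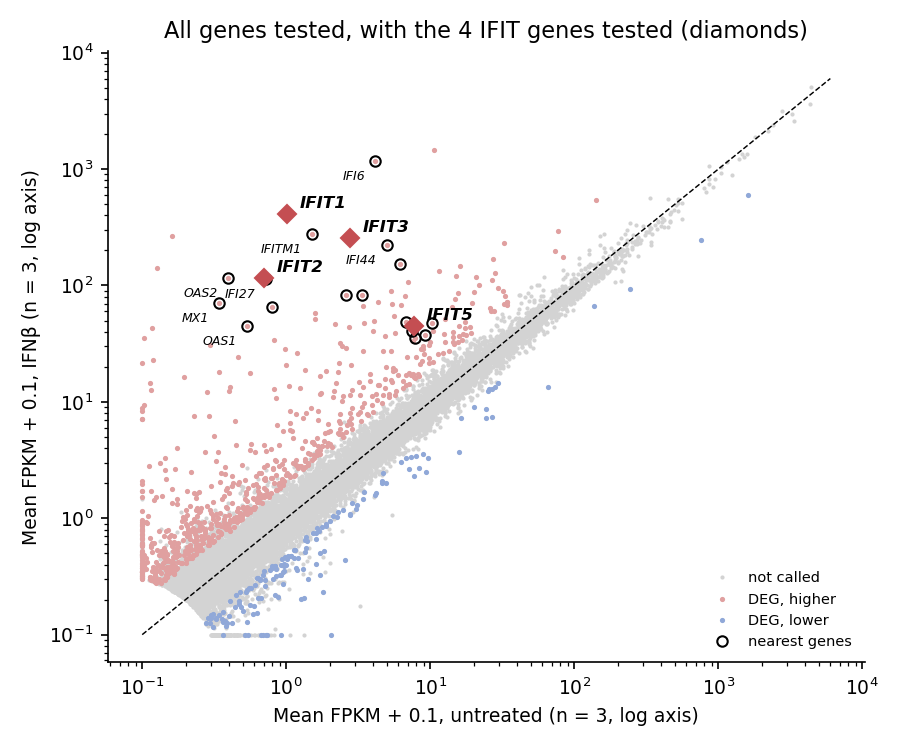
Mean FPKM + 0.1 of all 20716 genes tested in untreated (horizontal) and IFNβ-treated (vertical) libraries, n = 3 each, both axes logarithmic, with the line of equal levels dashed. Diamonds are the 4 IFIT genes tested, open circles the genes nearest to them, and coloured dots the 722 higher and 153 lower DEGs. IFIT1, IFIT2 and IFIT3 lie far above the line at a low untreated level, and IFIT5 lies closer to it.

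The genes most like each member were sought as the 5 with the smallest Euclidean distance in the mean log2(FPKM + 0.1) of untreated and of IFNβ-treated libraries, over the 2 group means of the 6 libraries. For IFIT1 these were IFITM1 (distance 0.81), which restricts viral entry, IFI27, OAS2, IFI44 and IFI6. IFITM1 had 1.42 ± 0.177 FPKM in untreated and 277 ± 3.55 FPKM in treated cells (SD, 3 libraries per group), with a log2 fold change of 7.52 ± 0.08 (SE, adjusted p = 2.6e-08 in limma). The other 4 were at distances of 1.93 to 2.52, so that IFIT1 had few genes close to it.

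IFIT2 had a near match in IFI27, a small mitochondrial protein of the interferon response, at a distance of 0.05. IFI27 had 0.613, 0.610 and 0.638 FPKM in untreated libraries and 112, 114 and 114 FPKM in treated ones, and overlapped IFIT2 in range in both groups. IFI27 was chosen by these same levels, so its closeness to IFIT2 is by construction. It was followed by OAS2, USP18, MX1 and OAS1 at distances of 0.82 to 1.41. OAS1 and OAS2 make the oligoadenylates that activate RNase L, MX1 is a dynamin-like antiviral GTPase and USP18 removes ISG15 from proteins.

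IFIT3 was nearest to IFITM1 (0.87), IFI44 (0.88), IFI35 (1.37), HELZ2 (1.65) and OAS3 (1.65), with its level taken at the implied length of 5067 bases, and these neighbours were not sought with the release 29 length. IFIT5 sat among genes of a moderate rise at distances of 0.16 to 0.42. They were HES4, a transcriptional repressor, the ubiquitin ligase RNF213, the guanylate-binding protein GBP3, the immunoproteasome subunit PSMB8 and EIF2AK2, the double-stranded RNA-activated kinase PKR. Their log2 fold changes ran from 2.05 for PSMB8 to 2.82 for RNF213. These lie near that of IFIT5 by construction, because the genes were chosen by the same levels.

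Among the genes that carry the signal to the IFIT promoters, 6 were described. The ISGF3 subunits STAT2 and IRF9 were DEGs and the 4 receptor chains and kinases were not, where 4.22% of all genes tested were DEGs. STAT2 had 3.77, 3.94 and 3.92 FPKM in untreated and 41.2, 39.7 and 40.8 FPKM in treated libraries, with no overlap. It rose by a log2 fold change of 3.35 ± 0.03 (SE, adjusted p = 8.5e-09 in limma). IRF9 rose to 1.53 FPKM by 2.79, from only 17 to 30 fragments per untreated library. The IRF9 log2 fold change was 1.15 with a pseudocount of 1, 3.40 with a pseudocount of 0.01 and 3.45 in limma-voom on the fragments, and the ratio of mean FPKM was 11.3. The log2 fold changes were -0.20 for IFNAR1, 0.32 for IFNAR2, 0.38 for JAK1 and 0.16 for TYK2, with a limma adjusted p under 0.05 for all but IFNAR2, beside 15.2% of all genes tested that were higher and 17.5% that were lower at that adjusted p. For the IFNAR1 log2 fold change the limma adjusted p was 0.055 without IFNβ replicate 1. The median over these genes was 0.35.

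Of the type I interferons themselves, 14 of 17 genes were listed at 0 in every library, IFNB1 had 1 fragment in a single treated library, and only IFNE passed the filter. IFNE, an epithelial interferon, had 0.631 ± 0.231 FPKM in untreated and 0.703 ± 0.146 FPKM in treated cells (SD, 3 libraries per group) with overlapping groups, a log2 fold change of 0.17 (limma adjusted p = 0.69).

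The log2 fold changes of the inhibitors of the pathway ran from -0.63 to 7.09. Of 9 listed, 8 were tested and 3 were DEGs with higher values, beside 3.49% of all genes tested. ISG15, a ubiquitin-like modifier that stabilises USP18, rose from 10.5 ± 0.473 to 1448 ± 30.1 FPKM (SD, 3 libraries per group) by a log2 fold change of 7.09. USP18, which blocks the receptor, rose from 0.693 ± 0.157 to 65.1 ± 0.712 FPKM (SD, 3 libraries per group) by 6.38, the value closest to that of IFIT3 among these genes. SOCS1, an inhibitor of the Janus kinases, rose by a log2 fold change of 1.15, which was 0.87 and under the threshold with a pseudocount of 1. The phosphatase PTPN11 had the lowest value, -0.63 (adjusted p = 7.3e-06 in limma), which did not reach the fold threshold. It went from 33.6 to 21.7 FPKM, and the groups did not overlap. With PTPN11, 2 inhibitors were lower at an adjusted p under 0.05, beside 17.5% of all genes tested.

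Of 8 IRF factors other than IRF9, 5 were tested. IRF1 was the only DEG, beside 4.22% of all genes tested, with a log2 fold change of 1.21 ± 0.09 (SE, adjusted p = 2.0e-04 in limma). Another 2 were higher at an adjusted p under 0.05 and under the fold threshold. At that adjusted p, 15.2% of all genes tested were higher. The median log2 fold change of the list was 0.59. With a pseudocount of 1 the value of IRF1 was 0.92, under the threshold. IRF7, a factor that amplifies interferon production, had 0.570, 0.813 and 0.837 FPKM in untreated and 0.883, 0.582 and 0.782 FPKM in treated libraries. These overlapped, and its log2 fold change was 0.02 (limma adjusted p = 0.97).

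All 16 genes of RIG-I and MAVS signalling were tested and 5 were DEGs, beside 4.22% of all genes tested. The 5 DEGs were the RNA sensors IFIH1 (log2 fold change 5.20), DHX58 (4.85) and RIGI (3.06), the DNA-pathway adaptor STING1 (1.27) and the ubiquitin ligase TRIM25 (1.23). IFIH1 rose from 1.48 ± 0.189 to 58.0 ± 0.823 FPKM and DHX58 from 0.878 ± 0.0180 to 28.1 ± 0.125 FPKM (SD, 3 libraries per group). RIGI rested on 18 to 26 fragments per untreated library, and the RIGI log2 fold change was 1.14 with a pseudocount of 1, 4.02 with a pseudocount of 0.01 and 4.17 in limma-voom on the fragments, beside a ratio of mean FPKM of 18.1. MAVS, the adaptor downstream of these sensors, had 8.97 ± 0.200 and 8.65 ± 0.115 FPKM (SD, 3 libraries per group) with overlapping groups. The median log2 fold change of the list was 0.33.

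IFIT1 reads the state of the messenger RNA cap, so genes that make, methylate, bind or remove the cap, or that start translation at it or hold back the factor that binds it, were also listed. All 25 were tested and 1 was a DEG, beside 4.22% of all genes tested. CMTR1, the enzyme that methylates the first ribose after the cap, had 9.97, 9.45 and 9.59 FPKM in the untreated libraries and 31.0, 31.1 and 30.8 FPKM in the treated ones. All treated libraries lay well above the untreated ones, with a log2 fold change of 1.67 ± 0.03 (SE, adjusted p = 1.3e-07 in limma). CMTR2, which methylates the next ribose, had 5.69 ± 0.115 and 5.77 ± 0.188 FPKM (SD, 3 libraries per group) and a log2 fold change of 0.02, with overlapping groups. Of the remaining genes, 13 had a lower level with an adjusted p under 0.05 and less than the fold threshold, the lowest being EIF4G2, a relative of the scaffold eIF4G, at -0.43. The median of the list was -0.15, and over all genes tested 17.5% were lower at that adjusted p.

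The initiation factor eIF3 is known to be bound by IFIT1 and IFIT2. None of its 14 subunits was a DEG in limma, beside 4.22% of all genes tested. At an adjusted p under 0.05, 8 of them were lower, beside 17.5% of all genes tested. EIF3L had the lowest log2 fold change, -0.56, at 60.2 ± 2.32 FPKM in untreated and 40.7 ± 0.965 FPKM in treated cells (SD, 3 libraries per group). EIF3CL had the highest, 0.07, and it is a near-identical copy of EIF3C, so the fragments of this pair are uncertain. The median was -0.18.

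The genes around the cluster had smaller log2 fold changes than the 4 members tested. Within 1 Mb of the cluster, 14 other protein-coding genes are annotated and 8 were tested. Of these, 1 was a DEG, beside 4.22% of all genes tested. The DEG was LIPA, the lysosomal acid lipase, whose span on the minus strand (chr10:89213569-89414557) covers IFIT2, IFIT3, IFIT1B and IFIT1 entirely. LIPA had 14.4, 14.7 and 14.3 FPKM in untreated and 29.6, 31.6 and 31.8 FPKM in treated libraries, with no overlap, and a log2 fold change of 1.10 ± 0.03 (SE, adjusted p = 2.9e-06 in limma). None of its 3 promoter windows in the RefSeq table held the searched letters. The end of its span, which is its annotated start, lies among the 3 matches of the IFIT5 window, at chr10:89414523-89414532, chr10:89414549-89414558 and chr10:89414564-89414573. Whether these matches bear on LIPA was not tested.

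In release 29, LIPA exons overlap exons of IFIT2 by 65 bases, or 1.58% of the exon length of IFIT2. The noncoding gene AL353751.1, on the strand of IFIT2, overlaps them by 356 bases, or 8.68%, and had 1 to 4 fragments in untreated and 11 to 15 fragments in treated libraries. Whether counting used strand is not stated, so reads in the bases shared with LIPA cannot be assigned to a strand. No other member shares exon bases with a neighbour in release 29. The FPKM imply longer genes than release 29 for IFIT2 (4326 against 4101 bases), IFIT3 (5067 against 2640) and IFIT5 (4369 against 4015). Overlap in the bases outside release 29 was not tested.

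Farther away, the log2 fold changes were 0.53 for ACTA2, the smooth muscle actin, 0.36 for STAMBPL1, a deubiquitinase, and 0.31 for FAS, the death receptor. Each had an adjusted p under 0.05 in limma and was under the fold threshold. At that adjusted p, 15.2% of all genes tested were higher. For the FAS log2 fold change the limma adjusted p was 0.027, but 0.060 with the replicate block, 0.086 with quantile normalization and 0.063 to 0.085 in 5 of the 6 fits that left out a single library. ANKRD22 (-0.52), SLC16A12 (0.16), PANK1 (-0.14) and KIF20B (0.03) had overlapping groups. The nearest tested protein-coding gene downstream of IFIT5 was SLC16A12, at 0.471 ± 0.0610 FPKM in untreated and 0.539 ± 0.0873 FPKM in treated cells (SD, 3 libraries per group).

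The letters found in the IFIT promoters were also counted across the genes tested that have a promoter window, leaving the members out. Of 11065 genes with no match in any window, 2.35% were DEGs with higher values. The share was 14.7% of 428 genes with 1 match in their best window, 55.9% of 34 genes with 2 and 42.9% of 7 genes with 3 or more. The median log2 fold change was -0.02 with no match, 0.10 with 1 match, 1.26 with 2 and 0.86 with 3 or more. These are descriptions over genes, which are not independent replicates. Within the family the number of matches did not order the fold changes, since IFIT5, with 3 matches, had the smallest and IFIT1, with 2, the largest of the members with a window that were tested.

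The libraries were divided by 22848104 to 32915500 fragments when the FPKM were made. Of the mesenchymal markers, 6 of 7 were tested, with a summed level of 805 to 858 FPKM in untreated and 846 to 881 FPKM in treated libraries, led by VIM. The log2 fold changes of VIM (-0.29), FN1 (0.51), SPARC (0.32), CDH2 (0.16) and COL6A1 (0.12) had a limma adjusted p under 0.05 and were under the fold threshold. At that adjusted p, 15.2% of all genes tested were higher and 17.5% lower. COL6A2 (-0.06) did not reach it. THY1, the marker not tested, had 3, 4 and 6 fragments in untreated and 3, 1 and 0 in treated libraries. None of the 6 epithelial and 7 leukocyte markers passed the filter, the highest having 7 and 6 fragments in any library. Of 4 endothelial markers, PECAM1 and TEK passed at a low level with overlapping groups, while CDH5 had 0 to 5 fragments in untreated and 11 to 17 in treated libraries. VWF had 0, 1 and 8 fragments in untreated and 11, 7 and 12 in treated libraries, with no overlap in FPKM. The part of either gene in the results was not tested. Over all genes tested the median log2 fold change was between -0.06 and 0.01 under the other scalings.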

How the data were processed

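Total RNA was taken from 6 HT1080 libraries and sequenced as paired ends. The authors enriched mRNA and deposited FPKM per Ensembl gene and library. The submitters' processing notes name fastp, HISAT2, StringTie and GRCh38, with no version or role. The annotation behind the FPKM and the use of strand are not given in the sources used here, and 4436 gene IDs are not in GENCODE release 29. The titles of treated libraries end in 301, 302 and 303, where those of untreated libraries end in 1, 2 and 3. The labels do not explain the added digits, and the dose of 20 ng/mL is that of the treatment protocol.

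FPKM were whole multiples of the value of 1 fragment, to within 0.001, for 100% of the 35303 genes above 0, and fragments were recovered from them. Depth limits precision through these fragments. Intervals on fragment ratios cover counting error only, and those on differences between members cover the spread between libraries only. The test was limma 3.58.1 in R 4.3.3 (lmFit, eBayes with trend) on log2(FPKM + 0.1), two-sided and with no covariate. Adjusted p-values are from this fit over 20716 genes, those averaging 0.1 FPKM or more, unless another setting or test is named. The pseudocount understates the change of low genes. Python 3.11.15 did the rest.

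The members and the 13 gene lists, cell type markers included, were chosen with earlier results of these data known, and 1 gene of the signalling list is not reported here. Genes named are the members, the DEGs of each list or, where under 3, also its largest and smallest fold change, the tested protein-coding genes within 1 Mb, and the 5 nearest genes of each member. MAVS, CMTR2 and PTPN11 were chosen after their values were seen, and so were the values of receptor chains and kinases and of AL353751.1. Alternatives were other pseudocounts, filters, scalings and variance priors, a replicate block, leaving out single libraries, and limma-voom on the fragments. Release 29 lengths were added after the data were seen. Within a group, library pairs differed beyond counting error (chi-square per degree of freedom 1.82 to 3.60).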

Additional observations from a re-analysis of the deposited data

How the results depend on the processing

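IFIT1, IFIT2, IFIT3 and IFIT5 kept their direction and their call in all 16 other fits, with log2 fold changes of 7.75 to 8.80, 6.19 to 7.59, 6.14 to 6.59 and 2.40 to 2.55. With the replicate number as a replicate block the 4 members were called as before, the highest limma adjusted p being 7.4e-06, the number of DEGs came to 829, and no named gene became or ceased to be a DEG, while FAS, under the fold threshold, no longer had an adjusted p under 0.05. The numbers share no stated origin, and libraries with the same number correlated at -0.02 to 0.12. The 875 DEGs were 722 higher and 153 lower. They became 897 higher and 208 lower in limma-voom on the fragments, and 774 and 171 with a pseudocount of 0.01. Their number became 304 with a pseudocount of 1, 425 with a mean FPKM of at least 1, 809 to 867 with each library left out, and 6778 with no fold threshold. Without that threshold 5 genes of the receptor list, 5 inhibitors, 3 IRF factors, 10 of RIG-I and MAVS signalling, 15 of the cap list, 8 eIF3 subunits and 4 neighbours of the cluster passed. Over all genes tested, 15.2% passed as higher and 17.5% as lower. With a pseudocount of 1, SOCS1 (0.87) and IRF1 (0.92) fell short of the fold threshold, leaving 0 IRF factors, and the filter at 1 FPKM left 1 DEG in the receptor list, since IRF9 was not tested. Signs changed for IRF7 with quantile normalization (-0.11) and with single libraries left out (-0.14 to 0.16), for the EIF3CL log2 fold change likewise (-0.00823, and -0.0631 to 0.244), and with single libraries left out for IFNE (-0.10 to 0.38) and the KIF20B log2 fold change (-0.0504 to 0.0773), none of which was called in the report. As shares of fragments, IFIT1 took 48.8% after IFNβ, IFIT2 4.82% before and 12.8% after, IFIT3 25.1% and 33.4%, and IFIT5 62.2% and 5.02%. With release 29 lengths IFIT1 took 6.12% and 38.3%, IFIT2 4.21% and 11.3%, IFIT3 34.1% and 45.8%, and IFIT5 55.6% and 4.53%. The cause of these changes was not tested, other than through the construction of the settings. IFIT1B passes no filter, and with none its limma adjusted p was 0.087. The untreated levels of IFIT1 and IFIT2 are limited by fewer than 150 fragments per library.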
